A study of Mus musculus with 4 samples.

Results

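Heat shock proteins and their partner chaperones were examined in Met-low and Met-high cells of the mouse melanoma line B16-F10. Members were chosen by RefSeq gene symbol and not by their measured values. They were the HSP70 genes (Hspa), the HSP90 and HSP110 genes (Hsp90a, Hsph), the small heat shock proteins (Hspb), the chaperonins (Hspd1, Hspe1 and the Cct genes), the J proteins (Dnaj), the BAG factors and the heat shock factors (Hsf), without the endoplasmic reticulum stress genes Hspa5, Dnajb9 and Dnajc3. Of 108 symbols that fit this choice, 89 had a probe on the array, and 68 of these gave a signal well above background in both replicates of one or the other population. These 68 were among the 11958 genes tested. The 19 symbols without a probe were 17 pseudogenes, Dnajb5 and Hspa1b. A further 21 genes had a probe but did not pass the filter, 19 of them with no array well above background. The 68 that passed were well above background on all 4 arrays.

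Molecular chaperones hold unfolded or partly folded proteins and release them in cycles of ATP binding and hydrolysis. J proteins bring substrates to HSP70 and start its ATP hydrolysis, BAG and HSP110 proteins make HSP70 release its nucleotide, and HSP90 and the chaperonins act on selected substrates such as kinases, actin and tubulin. The transcription factor HSF1 switches on the inducible part of this set after heat or other protein stress, and many tumour cells, melanoma included, depend on high chaperone activity.

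B16-F10 is a highly metastatic line of the C57BL/6 mouse. Its cells were grown in RPMI medium with serum, stained for the receptor Met on the cell surface, sorted by flow cytometry into a Met-low and a Met-high population, and cultured separately for 3 days with no other treatment. For each population, RNA of 2 separately prepared samples was labelled with Cy3 for 1-colour arrays, so every comparison is 2 arrays against 2, drawn from 1 cell line. Values are log2 signals minus the log2 of the 75th percentile on the same array, and a ratio is the Met-high mean minus the Met-low mean, with the standard error (SE) and adjusted p of limma. Levels of different genes cannot be compared on this scale because each gene has its own probe.

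All 4 arrays shared 1 slide and 1 scan, with each population at its own positions, so the effects of position and population cannot be told apart. That 75th percentile was between 858 and 1331 intensity units, and between 50.01% and 53.6% of spots were well above background. The 8 melanocyte markers were well above background on every array. Of the markers of other cells, all 4 arrays were well above background for 2 of 6 leukocyte markers (Cd3e and Itgam), 1 of 6 of fibroblasts (Col1a2), 1 of 4 of endothelium (Kdr) and 0 of 4 of keratinocytes, while Ptprc, Cdh5, Dcn and Lum were above it on no array. Met itself, the receptor used for sorting, measured -0.26 and -0.89 in Met-low and 1.03 and -0.43 in Met-high cells, a ratio of 0.87 (SE 0.51, limma adjusted p = 0.33). Thus the library labelled Met-high replicate 2 lay within the Met-low range for Met mRNA, and counts and group medians are given without it where they move by more than 1.5 times.

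In the main analysis, which fitted no replicate block, the difference between the populations passed the test for no heat shock or chaperone gene. For most of them the interval of the ratio lay within a 2-fold difference. None of the 68 members passed limma at an adjusted p under 0.05, against 1.95% of all genes tested that passed as higher in Met-high cells and 3.82% as lower (5.77% in all). At an unadjusted p under 0.05, 9 members had a higher Met-high mean (13.2%, against 14.3% of all genes) and 7 had a lower mean (10.3%, against 11.9%). These 16 became 7 without Met-low replicate 1, and 8 without Met-low replicate 2 or without Met-high replicate 2. The methods' t-test passed 0 members after Benjamini-Hochberg adjustment and 12 at an unadjusted p under 0.05. After adjustment it passed only 1 of all 11958 genes, so its 0 members add little to the result of limma. With same-numbered arrays fitted as a block, limma passed 10 of the 68 members as higher and 5 as lower. That fit passed 3556 of all 11958 genes, and the labels do not say what the shared number marks. The median ratio of the members was 0.12, beside 0.10 for all genes tested, and their ratios ran from -1.08 for Dnajc12 to 1.13 for Hspb6. The 95% interval of the ratio lay within a 2-fold difference for 57 of 68 members (83.8%, against 68.6% of all genes), and 19 of these lay within 1.5-fold.

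Both arrays of one population lay above both of the other for 25 members in the direction of Met-high (36.8%, against 35.8% of all genes) and for 16 in the direction of Met-low (23.5%, against 22.6%). The mean was higher in Met-high cells for 46 members and lower for 22 (67.6% higher, against 59.5% higher and 40.5% lower of all genes). A difference of means of 2-fold, the size of change by which the study selected genes without a test, was reached by 3 members in the direction of Met-high (Hspb6, Hspa12b and Hsf4, against 2.43% of all genes) and by Dnajc12 alone in the direction of Met-low (against 5.29%). Without Met-high replicate 2, and likewise without Met-low replicate 1, these became 0 members higher and 2 lower. In these settings the median ratio of the members was 0.043 and 0.050, below that of all genes, 0.085 and 0.10. Limma passed Dnajc12 as lower in the first of these. Replicates of the same population differed by a median, over the members, of 0.16 for Met-low and 0.21 for Met-high. Scaling each array to the probes detected on all 4 arrays moved the median of all genes from 0.10 to -0.05 and that of the members from 0.12 to -0.03, so a positive ratio under about 0.15 here has a sign that depends on the scaling.

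**Figure D1:**
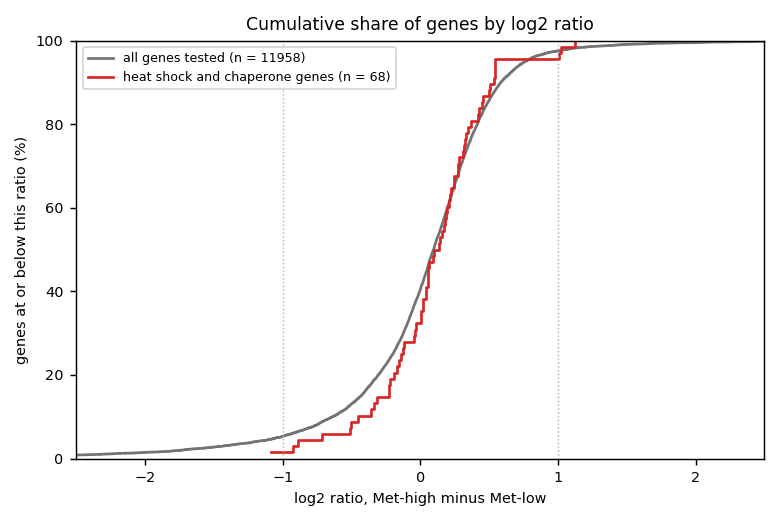
Cumulative share of genes (%) by log2 ratio, Met-high minus Met-low, for all 11958 genes tested (grey) and the 68 heat shock and chaperone genes (red), with dotted lines at a 2-fold difference. Both curves cross 50% close to 0.1, and the members run only from -1.08 to 1.13.

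**Figure D2:**
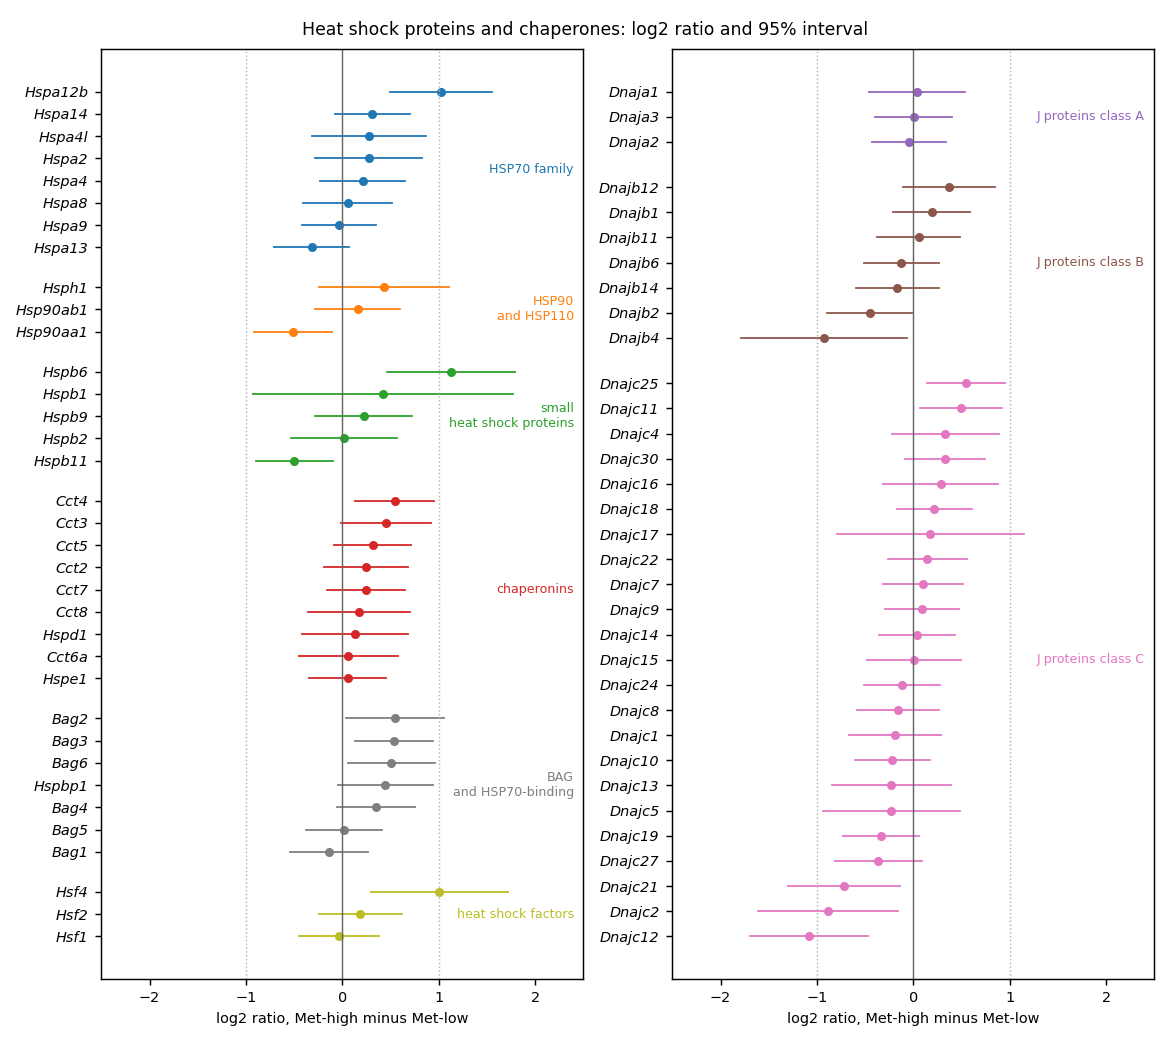
Log2 ratio of each of the 68 members (points), Met-high minus Met-low, with its 95% interval from limma (bars), by role, and with dotted lines at a 2-fold difference. All 9 chaperonins lie to the right of 0 (7 under quantile normalization, 6 when scaled to detected probes), the J proteins lie on both sides, and most intervals stay inside the dotted lines.

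None of the inducible genes that HSF1 is known to drive passed the test in the main analysis. Of 15 such genes listed, 14 had a probe and 12 were tested. Of the 12, 10 had a higher mean and 2 a lower mean in Met-high cells (83.3% higher, against 59.5% of all genes). Their median ratio was 0.15, beside 0.10 for all genes. The count of higher means was 7 of 12 with quantile normalization and 6 of 12 when arrays were scaled to detected probes. Under these 2 settings the median of the 12 was 0.037 and 0.00085, and that of all genes was 0.067 and -0.051. The count was 8 of 12 without Met-high replicate 2, with a median of 0.066, and 6 of 12 without Met-low replicate 1, with a median of 0.023. The populations did not overlap for 2 genes in the direction of Met-high (Bag3 and Dnajb1) and 2 in the direction of Met-low (Dnajb4 and Hsp90aa1), which is 16.7% each way, against 35.8% and 22.6% of all genes. Hspa1a, the strongly heat-inducible HSP70 whose near-identical copy Hspa1b has no probe here, measured -6.10 and -6.48 in Met-low and -6.79 and -5.62 in Met-high cells and was well above background on none.

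Promoters of such genes are known to carry the sequence that HSF1 binds, an alternating run of the 5-base unit NGAAN. Windows from 250 bases before to 50 bases after the start of a transcript, from the RefSeq promoter table (GRCm38.p6), were searched on both strands for a facing or a diverging pair of units, GAANNTTC or TTCNNGAA, each of which is its own reverse complement. Windows were found for 12 of the 15 listed genes, and 10 of the 12 genes held a pair in at least 1 window. By window, 11 of 18 held a pair (61.1%), against 15.1% of all 32851 windows. A run of 3 alternating units, in which a GAANNTTC overlaps a TTCNNGAA, was found for Hspd1, Hspe1 and Hsph1, and in 0.603% of all windows. A window was found for 51 of the 68 tested members (75%), against 80% of the listed genes, and no share over all members is given. Hspd1 and Hspe1, whose windows overlap, both count among the 11. A match describes these letters only. The windows below are printed 5′ to 3′ on the strand of the gene, with matched pairs in capitals. For Hsph1 and Dnajb4, which have 2 windows each, the printed window was picked by its number of matches. Hspe1 (chr1:55087898-55088197, plus strand) is shown because its window overlaps that of Hspd1, which is read from the opposite strand, by 285 bases, and holds 3 overlapping pairs. Hsph1 (chr5:149636266-149636565, minus strand) also holds a run. Bag3 (chr7:128523333-128523632, plus strand) and Dnajb4 (chr3:152193796-152194095, minus strand) are shown because each holds a pair while their ratios point in opposite directions.
Hspe1: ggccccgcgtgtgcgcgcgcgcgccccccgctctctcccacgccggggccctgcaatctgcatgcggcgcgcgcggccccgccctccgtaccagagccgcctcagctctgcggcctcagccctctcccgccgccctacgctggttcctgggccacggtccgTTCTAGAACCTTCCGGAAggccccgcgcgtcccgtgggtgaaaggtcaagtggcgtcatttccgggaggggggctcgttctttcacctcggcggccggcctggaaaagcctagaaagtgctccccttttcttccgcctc
Hsph1: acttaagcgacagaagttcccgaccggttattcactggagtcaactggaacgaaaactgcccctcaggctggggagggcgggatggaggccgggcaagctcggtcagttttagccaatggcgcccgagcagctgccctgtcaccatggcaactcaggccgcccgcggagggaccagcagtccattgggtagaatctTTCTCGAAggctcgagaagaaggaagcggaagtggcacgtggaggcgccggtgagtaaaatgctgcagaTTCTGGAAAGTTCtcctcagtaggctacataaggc
Bag3: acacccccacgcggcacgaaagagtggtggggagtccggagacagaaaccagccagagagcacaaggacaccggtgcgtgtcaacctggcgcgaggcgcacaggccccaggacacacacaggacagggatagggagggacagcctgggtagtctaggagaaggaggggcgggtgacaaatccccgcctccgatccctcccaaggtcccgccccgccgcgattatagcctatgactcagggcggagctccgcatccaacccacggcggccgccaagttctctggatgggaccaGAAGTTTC
Dnajb4: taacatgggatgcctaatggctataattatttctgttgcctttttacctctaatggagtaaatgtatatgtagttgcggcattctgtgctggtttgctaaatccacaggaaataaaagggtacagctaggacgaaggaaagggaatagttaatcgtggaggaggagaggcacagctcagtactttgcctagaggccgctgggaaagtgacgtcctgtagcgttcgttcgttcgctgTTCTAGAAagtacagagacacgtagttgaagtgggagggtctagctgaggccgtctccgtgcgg

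Each of these 4 windows holds a pair, and the ratios of their genes ran from -0.93 to 0.54. Hspe1, the HSP10 lid of the mitochondrial chaperonin, measured 6.44 and 6.56 in Met-low and 6.51 and 6.60 in Met-high cells, a ratio of 0.05 with a 95% interval from -0.35 to 0.45. The arrays overlapped, and the 3 probes of Hspe1 gave ratios within 0.01 of each other. Hspd1, the HSP60 ring that Hspe1 closes, measured 6.40 and 6.73 in Met-low and 6.51 and 6.90 in Met-high cells, a ratio of 0.14 with an interval from -0.41 to 0.69. Replicate 2 was the higher array in both populations, and the populations overlapped.

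Hsph1, an HSP110 that exchanges the nucleotide of HSP70, measured 3.43 and 3.69 in Met-low and 3.66 and 4.32 in Met-high cells. Its ratio was 0.43 (SE 0.27, limma adjusted p = 0.36) and was 0.096 without Met-high replicate 2, the only array that stood above the rest on this probe. A dimmer Hsph1 probe measured 1.77 and 1.76 in Met-low and 2.09 and 2.55 in Met-high cells. On that probe the populations did not overlap, and the ratio was 0.55. Bag3, a co-chaperone that links HSP70 to selective autophagy, measured 2.11 and 2.02 in Met-low and 2.67 and 2.53 in Met-high cells. Its arrays did not overlap, and its ratio was 0.54 (SE 0.16, limma adjusted p = 0.12). Dnajb4, a cytosolic J protein induced by heat, measured -2.33 and -3.03 in Met-low and -3.25 and -3.96 in Met-high cells. Both Met-high arrays lay below both Met-low arrays, but Met-low replicate 2 was closer to Met-high replicate 1 than to its own replicate. Its ratio was -0.93 (SE 0.34, limma adjusted p = 0.17), with -0.58 without Met-high replicate 2 or without Met-low replicate 1. Across all settings the ratio ran from -1.28 to -0.51, the latter under normexp background correction.

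Of the transcription factors themselves, Hsf1, the main activator of the heat shock response, measured 2.69 and 2.48 in Met-low and 2.53 and 2.56 in Met-high cells. The populations overlapped, and the ratio was -0.04 with a 95% interval from -0.45 to 0.38, which lies within 1.5-fold in either direction. Hsf2, which can pair with HSF1, measured -0.87 and -0.76 in Met-low and -0.52 and -0.74 in Met-high cells, a ratio of 0.19 (SE 0.17, limma adjusted p = 0.52). Hsf4, a factor known from the lens, measured -1.78 and -1.29 in Met-low and -0.83 and -0.23 in Met-high cells. Its arrays did not overlap, with replicate 2 the higher array in each population. The ratio was 1.005 (SE 0.28, limma adjusted p = 0.11) and 0.70 without Met-high replicate 2. Without Met-high replicate 1 it was 1.30 and passed the threshold (adjusted p = 0.032, over a range of 0.010 to 0.36 across all settings). Hsf3 was well above background on Met-low replicate 1 only and was not tested.

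Among the HSP70 genes, 6 of the 8 tested had a higher Met-high mean (75%, against 59.5% of all genes). Their median ratio was 0.24, beside 0.10 for all genes. The count was 5 of 8 under quantile normalization or scaling to detected probes, with medians of 0.13 and 0.094. Under these 2 settings the median of all genes was 0.067 and -0.051. The HSP70 median was 0.090 without Met-high replicate 2 and 0.15 without Met-low replicate 1. Hspa8, the constitutive cytosolic HSP70 (HSC70), measured 7.75 and 7.54 in Met-low and 7.83 and 7.57 in Met-high cells. Replicate 1 was the higher array in both populations, which overlapped, and the ratio was 0.06 with a 95% interval from -0.41 to 0.52. The 3 probes of Hspa8 gave ratios within 0.089 of each other. Hspa9, the mitochondrial HSP70 (mortalin), measured 4.39 and 4.34 in Met-low and 4.32 and 4.34 in Met-high cells, a ratio of -0.03 with an interval from -0.42 to 0.35, and its 4 arrays spanned less than the typical difference between replicates.

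Hspa12b, a distant HSP70 relative known from endothelial cells, had the largest ratio of its family. It measured -2.71 and -2.25 in Met-low and -1.51 and -1.40 in Met-high cells, so that both Met-high arrays lay well above both Met-low arrays. The ratio was 1.02, or 2.03-fold (SE 0.21, limma adjusted p = 0.057). Without Met-low replicate 2 it was 1.25, and under normexp background correction it was 0.77, the highest and lowest of all settings. Across all settings the adjusted p of limma or the t-test ran from 0.014 to 0.27. The summed linear signal of the 4 endothelial markers was 6.31 and 5.48 in Met-low and 8.44 and 6.72 in Met-high cells. Of these markers Kdr was well above background on all 4 arrays, Pecam1 on 3, and Cdh5 and Tie1 on none. Nearly all of the sum was Kdr, which measured 2.65 and 2.43 in Met-low and 3.07 and 2.73 in Met-high cells. The sum thus shows little beyond the level of this gene. The part of these markers in the difference of Hspa12b was not tested. In bulk RNA such as this, fewer cells that express a gene and less RNA per cell cannot be told apart.

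HSP90 was represented by both cytosolic genes. Hsp90aa1, the inducible form, measured 5.34 and 5.50 in Met-low and 4.89 and 4.94 in Met-high cells. There was no overlap, and replicates lay close together. The ratio was -0.51, or 1.42-fold lower in Met-high cells (SE 0.16, limma adjusted p = 0.13). Hsp90ab1, the constitutive form, measured 7.54 and 7.40 in Met-low and 7.51 and 7.74 in Met-high cells. Its populations overlapped, and its ratio was 0.16 with a 95% interval from -0.28 to 0.60. The interval of Hsp90aa1, from -0.91 to -0.10, thus covered part of the same range, and the difference between the 2 genes was not tested.

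The largest ratio of all members was that of Hspb6 (HSP20), a small heat shock protein best known from muscle. It measured -0.55 and -0.04 in Met-low and 0.59 and 1.08 in Met-high cells. The populations did not overlap, and replicate 2 was the higher array in each. The ratio was 1.13, or 2.18-fold (SE 0.26, limma adjusted p = 0.075). It passed the threshold without Met-low replicate 2 (ratio 1.38, adjusted p = 0.035) and without Met-high replicate 1 (ratio 1.37, adjusted p = 0.028), over a range of 0.0074 to 0.32 across all settings. Since Hspb6 headed the list, 1 of its 2 promoter windows (chr7:30553051-30553350, plus strand) is printed here, picked by its number of matches. It holds a single pair, in capitals, and 15.1% of all windows held a pair. A window picked in this way cannot show whether the promoter of Hspb6 stands out.
Hspb6: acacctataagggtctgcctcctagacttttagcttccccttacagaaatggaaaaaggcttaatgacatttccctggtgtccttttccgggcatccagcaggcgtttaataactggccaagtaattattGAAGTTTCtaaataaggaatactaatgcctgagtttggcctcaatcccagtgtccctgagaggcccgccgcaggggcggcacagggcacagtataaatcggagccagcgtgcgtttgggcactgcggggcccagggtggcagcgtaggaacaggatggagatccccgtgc

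The other small heat shock proteins gave smaller or less even differences. Hspb1 (HSP27), an inducible chaperone of the actin cytoskeleton, measured -3.40 and -1.87 in Met-low and -2.54 and -1.89 in Met-high cells. Met-low replicate 1 stood apart from its replicate by 1.53, the widest gap between replicates of any member. The ratio of 0.42 (SE 0.53) turned to -0.35 without that array, and it was 1.19 without Met-low replicate 2 and 0.092 without Met-high replicate 2. Hspb11, which despite its name is known as a subunit of the intraflagellar transport machinery, measured -0.09 and -0.17 in Met-low and -0.57 and -0.70 in Met-high cells, with no overlap. Its ratio was -0.50 (SE 0.16, limma adjusted p = 0.13). Hspb8, a partner of Bag3, was well above background on Met-high replicate 2 only and was not tested. In all, 4 of 5 tested small heat shock proteins had a higher Met-high mean (80%, against 59.5% of all genes). The count was 3 of 5 under quantile normalization, when scaled to detected probes, or without Met-high replicate 2. Without Met-low replicate 1 the count was 2 of 5. The share of 59.5% applies to the main setting only.

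The cytosolic chaperonin CCT (TRiC), a double ring that folds actin and tubulin, was measured through Cct2 to Cct5, Cct6a, Cct7 and Cct8. All 7 had a higher Met-high mean, with a median ratio of 0.24, and the arrays did not overlap for 5 of them (71.4%, against 35.8% of all genes, of which 59.5% had a higher mean). The median was 0.16 without Met-high replicate 2 and 0.38 without Met-high replicate 1. It was 0.18 under quantile normalization and 0.098 when scaled to detected probes, where that of all genes was 0.067 and -0.051. Cct4 had the largest ratio. It measured 4.12 and 4.28 in Met-low and 4.71 and 4.77 in Met-high cells, a ratio of 0.54 (SE 0.16, limma adjusted p = 0.12). Next was Cct3, at 3.86 and 4.02 in Met-low and 4.24 and 4.54 in Met-high cells, a ratio of 0.45 (SE 0.18). Met-high arrays stood above Met-low arrays for both genes.

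Ratios of the other CCT subunits were 0.32 for Cct5, 0.24 for Cct2, 0.24 for Cct7, 0.17 for Cct8 and 0.06 for Cct6a. Cct2, Cct5 and Cct7 did not overlap between the populations, while Cct8 and Cct6a did. Every CCT interval lay within a 2-fold difference, and none of the 7 passed the threshold in the main analysis. The count of higher means was 6 of 7 under quantile normalization or scaling to detected probes, where Cct6a had a lower mean, and 5 of 7 without Met-high replicate 2, where Cct6a and Cct8 had. It was 6 of 7 without Met-low replicate 1. Tcp1, the gene of the CCT subunit that the symbol rule leaves out, measured 4.50 and 4.59 in Met-low and 4.89 and 5.08 in Met-high cells, a ratio of 0.44 (SE 0.17, limma adjusted p = 0.18). Its arrays did not overlap either.

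**Figure D3:**
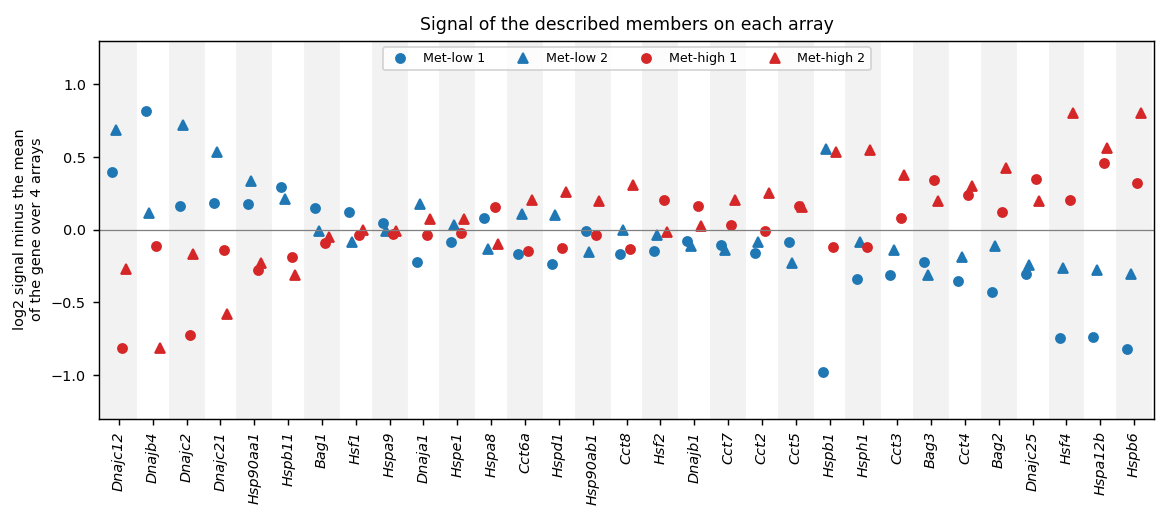
Log2 signal of the described members on each array, minus the mean of that gene over the 4 arrays, in order of ratio (blue, Met-low; red, Met-high; circles, replicate 1; triangles, replicate 2). At both ends red and blue points stand apart, in the middle they mix, and the single Met-low point of Hspb1 lies far below the other 3.

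The J proteins were the most numerous role, with 33 tested of 42 with a probe. Their ratios lay on both sides of 0, with 17 higher and 16 lower means (51.5% higher, against 59.5% of all genes) and a median of 0.01. Higher means numbered 11 of 33 under quantile normalization, 9 when scaled to detected probes, 12 without Met-high replicate 2 and 14 without Met-low replicate 1. In the order of these settings the J protein median was -0.17, -0.14, -0.070 and -0.12. That of all genes was 0.067, -0.051, 0.085 and 0.10. The share of 59.5% applies to the main setting only. The arrays did not overlap for 8 in the direction of Met-high and 12 in the direction of Met-low (24.2% and 36.4%, against 35.8% and 22.6% of all genes). At an unadjusted p under 0.05 there were 2 in the direction of Met-high and 5 in the direction of Met-low (6.06% and 15.2%, against 14.3% and 11.9% of all genes). By class, 3 of 7 of class B and 12 of 23 of class C had a higher mean, with medians of -0.12 and 0.01. When arrays were scaled to detected probes, these medians were -0.27 and -0.14, while that of all genes was -0.05. Without Met-high replicate 2 the class B and class C medians were -0.069 and -0.17, while that of all genes was 0.085.

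Dnajc12, a J protein known as a chaperone of the aromatic amino acid hydroxylases, had the lowest ratio of all members. It measured -2.89 and -2.60 in Met-low and -4.10 and -3.55 in Met-high cells. The populations did not overlap, and Met-high replicate 1 was the lowest array. The ratio was -1.08, or 2.12-fold lower in Met-high cells (SE 0.24, limma adjusted p = 0.068). Without Met-high replicate 2, the library in which Met mRNA lay within the Met-low range, the ratio was -1.35. It was -0.81 without Met-high replicate 1 and -0.59 under normexp background correction. Across all settings the adjusted p of limma or the t-test ran from 0.011 to 0.30.

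A pair of J proteins with roles at the ribosome also had a lower mean in Met-high cells. Dnajc2 (MPP11), which sits at the exit of the ribosome, measured 0.32 and 0.88 in Met-low and -0.57 and -0.01 in Met-high cells, a ratio of -0.89 (SE 0.29, limma adjusted p = 0.14). Dnajc21, which is needed to mature the large ribosomal subunit, measured -1.63 and -1.29 in Met-low and -1.96 and -2.40 in Met-high cells, a ratio of -0.72 (SE 0.23, limma adjusted p = 0.14). The arrays did not overlap for either gene. Hspa14, the HSP70 that works with Dnajc2 on the ribosome, had a ratio of 0.31 in the other direction, with arrays from 4.35 to 4.43 in Met-low and from 4.67 to 4.72 in Met-high cells.

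Of the J proteins on the other side, Dnajc25 was the highest, at -1.34 and -1.28 in Met-low and -0.69 and -0.83 in Met-high cells. The populations did not overlap, and the ratio was 0.55 (SE 0.16, limma adjusted p = 0.12). The major cytosolic J proteins lay near 0. Dnaja1, which works with HSC70 in folding and import, measured 4.66 and 5.06 in Met-low and 4.84 and 4.96 in Met-high cells, a ratio of 0.04 with a 95% interval from -0.46 to 0.54. Dnajb1 (HSP40), the inducible partner of HSP70, measured 3.96 and 3.92 in Met-low and 4.20 and 4.06 in Met-high cells. Its arrays did not overlap, but the ratio was only 0.19, with an interval from -0.21 to 0.59.

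More than 1 probe passed the filter for 19 tested members, of which 13 had probes that all pointed one way and 15 had probes within 0.5 of each other. Both signs occurred for Dnaja1, Dnajb6, Dnajc5, Dnajc14, Dnajc19 and Hspa4. The widest disagreement was for Dnajc19, a J protein of the mitochondrial import motor. Its brighter probe had lower Met-high arrays (3.12 and 3.23 against 2.83 and 2.84), and its other probe, designed on a different transcript, had higher ones (2.15 and 1.58 against 2.88 and 2.52). These ratios, -0.34 and 0.83, differed by 1.17, so no direction is given for Dnajc19. Whether probes also bound transcripts of the pseudogenes was not tested.

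The BAG and HSP70-binding factors had a median ratio of 0.44 over 7 tested genes, of which 6 had a higher Met-high mean (85.7%, against 59.5% of all genes). The arrays did not overlap for 5 in that direction (71.4%, against 35.8% of all genes). Of the 7, 3 reached an unadjusted p under 0.05 in that direction (42.9%, against 14.3% of all genes), and 0 passed after adjustment in the main analysis. The median was 0.34 under quantile normalization and 0.30 when scaled to detected probes, with 5 of 7 higher means in both, and it was 0.37 without Met-high replicate 2, with 6 of 7. Besides Bag3, Bag2, an inhibitor of the ubiquitin ligase CHIP, measured 1.002 and 1.32 in Met-low and 1.55 and 1.86 in Met-high cells. There was again no overlap, and its ratio was 0.54 (SE 0.20, limma adjusted p = 0.17). Bag6, which guides tail-anchored and mislocalised proteins, and Hspbp1, a nucleotide exchange factor, had ratios of 0.51 and 0.44. Bag1, the founding member, measured 5.54 and 5.38 in Met-low and 5.30 and 5.34 in Met-high cells, a ratio of -0.14 with a 95% interval from -0.54 to 0.26.

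**Figure D4:**
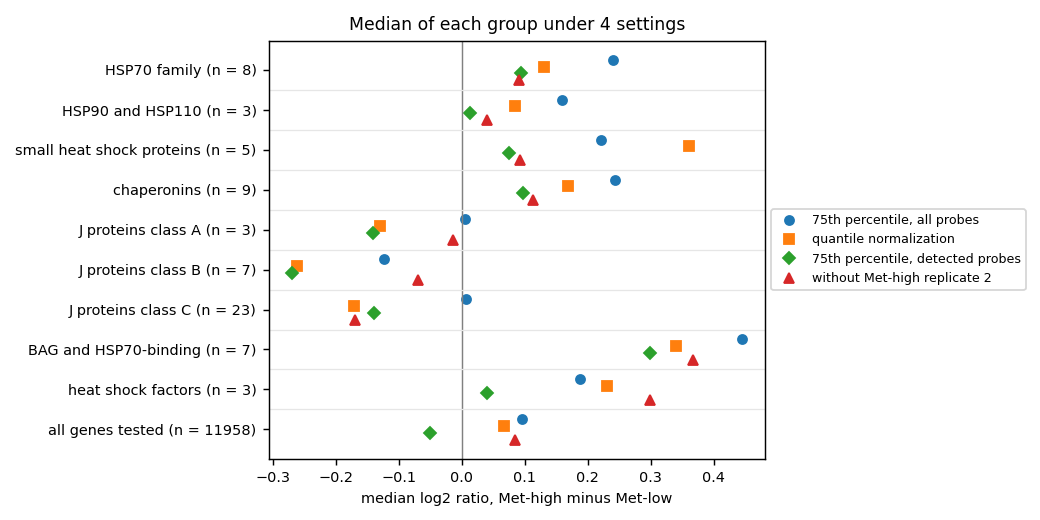
Median log2 ratio, Met-high minus Met-low, of each role and of all genes tested, under the main scaling, quantile normalization, scaling to detected probes, and without Met-high replicate 2. The BAG and HSP70-binding factors stay between 0.30 and 0.44, and class B J proteins stay below 0, while the class C median is 0.01 under the main scaling and negative under the other 3.

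Cofactors outside the symbol rule were compared as well. Of 46 listed, 45 were tested, 0 passed limma in either direction, and at an unadjusted p under 0.05 there were 5 with a higher mean in Met-high cells and 0 with a lower one (11.1% and 0%, against 14.3% and 11.9% of all genes). Their median ratio was 0.09, beside 0.10 for all genes, with 31 higher and 14 lower means (68.9% higher, against 59.5% of all genes). Higher means numbered 25 of 45 under quantile normalization and 20 of 45 when scaled to detected probes. In these settings the median of the cofactors was 0.0070 and -0.053, beside 0.067 and -0.051 for all genes. The cofactors thus did not lie above all genes there. Stip1 (HOP), which passes substrates from HSP70 to HSP90, measured 2.35 and 2.66 in Met-low and 2.64 and 3.34 in Met-high cells. Only Met-high replicate 2 stood above the rest, as for the brighter probe of Hsph1. The ratio was 0.49 (SE 0.28, limma adjusted p = 0.32), or 0.14 without that array. Cdc37, which delivers kinases to HSP90, measured 6.43 and 6.53 in Met-low and 6.63 and 6.84 in Met-high cells, a ratio of 0.25 (SE 0.17, limma adjusted p = 0.39).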

How the data were processed

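The deposited scanner files give, over 43020 spots other than controls, a background-corrected Cy3 intensity made by the authors with Feature Extraction (11.0.1.1 in the file headers, 10.7.3.1 in the labels). A deposited table holds the authors' log2 values, centred on each probe's median, and was used as an alternative, with 93.5% to 100% of its values within 0.01 of the values used here. Intensities were floored at 0.01 (0 spots), log2-transformed and scaled by subtracting the 75th percentile on the same array. Between 207 and 232 outlier spots per array were left out, and 0 were saturated. Of 39429 probes, 27427 matched a RefSeq symbol (GRCm38.p6, names only). The 12002 unmatched probes were left out. Each gene was represented by its brightest probe, and a gene was tested if it stood well above background in both replicates of one or the other population. The comparison used limma 3.58.1 (lmFit, then eBayes; R 4.3.3), with Benjamini-Hochberg adjustment over all 11958 genes and a threshold of 0.05. The fit was tested on simulated data. With 2 arrays against 2, the number of arrays limits the precision, p-values (two-sided) measure the spread between these samples, and no permutation can reach 0.05. Genes were described in detail if they were among the 6 largest ratios in each direction without overlap, or led a role. Members, lists and rules were chosen with earlier results of these data known. Alternatives were normexp (offset 50, on median intensities), quantile normalization, a percentile over detected probes, other filters, flagged spots kept, mean of probes, a variance trend, the replicate block, the methods' t-test and each array left out. Motifs were counted and figures drawn with Python 3.11.15, pandas 2.3.3 and matplotlib 3.10.9.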

Additional observations from a re-analysis of the deposited data

How the results depend on the processing

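With 0 members passing in the main analysis, those that passed under another setting were Hspa12b under normexp (1 higher), Hspa12b with genes detected on all 4 arrays (1 higher), Hspa12b and Hspb6 with a variance trend (2 higher), and Dnajc12 with the percentile of detected probes (1 lower). Leaving out each array in turn gave 0 to 2 higher and 0 to 1 lower. Members higher by 2-fold, 3 in the main analysis, numbered 1 under normexp, 0 with detected probes and 0 to 4 with an array left out. Those lower by 2-fold, 1 in the main analysis, numbered 0 under normexp, 0 under quantile normalization, 3 with detected probes, 4 with no filter on dim probes and 1 to 2 with an array left out. Besides Dnajc12, those counted without the filter were Dnajb3, Dnajc28 and Dnajc5b, none of them well above background on any array. The median ratio of 0.12 became 0.030 under quantile normalization, -0.030 with detected probes, 0.038 without the filter, 0.14 with the mean of probes, and 0.043 to 0.17 with an array left out. In the same order the median of all genes, 0.10 in the main analysis, was 0.067, -0.051, -0.092, 0.083, and 0.085 to 0.11. The cause of these shifts was not tested. Signs changed for small ratios and for Hspb1. Quantile normalization gave -0.078 for Cct6a, -0.080 for Dnaja1, -0.036 for Hspa8 and -0.024 for Hspe1. Detected probes gave -0.084 for Cct6a, -0.10 for Dnaja1, -0.091 for Hspa8, -0.011 for Hspd1 and -0.093 for Hspe1. Normexp gave 0.0038 for Hsf1. With an array left out, ratios ran from -0.11 to 0.24 for Cct6a, -0.046 to 0.40 for Cct8, -0.16 to 0.24 for Dnaja1, -0.14 to 0.069 for Hsf1, -0.074 to 0.18 for Hspa8, -0.35 to 1.19 for Hspb1, -0.057 to 0.33 for Hspd1 and -0.0038 to 0.11 for Hspe1. Over the genes described, 464 results kept their direction and side of the threshold, 24 newly passed it and 22 changed sign.

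Arrays of the same number share only that number in the labels. Their deviations from the population means correlated at 0.54 over all genes and 0.67 over members. With the replicate block, 10 of the 68 members passed as higher and 5 as lower, and 3556 of all 11958 genes passed, against 690 without it. Limits are the 2 arrays per population, the single slide, and probes near background. Without the filter on dim probes, 7 of all 20832 genes with a probe passed limma, against 690 of 11958 with it.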

Other observations

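Among the cofactors outside the symbol rule, Fkbp5 had the largest ratio. This gene, an immunophilin that binds HSP90 in steroid receptor complexes, was picked out after its values were seen. It measured 1.74 and 1.62 in Met-low and 2.496 and 2.38 in Met-high cells, with no overlap, and its ratio of 0.76 (SE 0.16) did not pass limma (adjusted p = 0.061). Ptges3 (p23), another HSP90 cochaperone picked out in the same way, measured 4.91 and 4.97 in Met-low and 5.59 and 5.45 in Met-high cells, a ratio of 0.58 (SE 0.16, limma adjusted p = 0.10).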
